A study of Mus musculus with 6 samples.

Results

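A set of 10 genes of the alveolar epithelium was followed in RNA from sorted lung endothelial cells, out of 24520 genes in the deposited table. They were taken by name, with no threshold on their values, and earlier results of these data were known when the set was chosen. Of these, 7 mark the type 2 cell (Sftpc, Sftpa1, Sftpb, Sftpd, Lamp3, Napsa and Slc34a2), 2 mark the type 1 cell (Ager and Hopx), and Nkx2-1 encodes a transcription factor of lung epithelium. All 10 symbols matched 1 row each. The 6 libraries came from wild-type (wt) mice, 3 aged 18 months (labelled Aged, the older group) and 3 aged 8 months (labelled mAdu, the younger group), with no other treatment, allele or agent in the labels. The sources used here do not give the strain, the sorting markers, or whether each library came from a separate mouse or a pool. The p-values therefore measure the spread between libraries, part of which may be technical. The question put to these genes was how much alveolar RNA each endothelial sort carried and whether this differed with age.

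The alveolus is lined by flat type 1 cells, across which gas is exchanged, and cuboidal type 2 cells, which make surfactant. Surfactant is a film of phospholipid and protein that lowers surface tension. Its hydrophobic proteins SP-B and SP-C are stored with the lipid in lamellar bodies, and its collectins SP-A and SP-D bind microbes. NKX2-1 activates surfactant protein genes in type 2 cells. Surfactant proteins are products of epithelium, and alveolar capillaries lie against the epithelium across a thin basement membrane.

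Values are TPM, a relative transcript abundance corrected for transcript length and library size, which allows levels of different genes to be compared. Each library's TPM summed to between 869315 and 876126 in the table. Read depth cannot be recovered from this unit and is unknown, and no counting error can be given. The endothelial label was borne out by its markers: Pecam1, an adhesion molecule of endothelial junctions, lay between 1286 and 1442 TPM, and the summed TPM of 22 endothelial genes lay between 19127 and 21013 at 18 months and between 21931 and 24069 at 8 months. These sums were lower at 18 months and did not overlap between the ages. Of 21 general epithelial genes, 13 had a mean of at least 1 TPM. The most abundant were Ocln, a tight junction protein that endothelium also makes, at 69.0 to 85.4 TPM, and the keratin genes Krt19 and Krt18, at 7.36 to 23.9 and 6.31 to 18.1 TPM. The epithelial surface marker Epcam was among the 8 below that mean, at 0.292 to 1.38 TPM. In a bulk sort, fewer cells of a type and less RNA per cell cannot be told apart.

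Promoter sequences are shown for 4 type 2 genes whose levels went up and down together across the libraries, and for Hopx, whose level did not follow them. They were taken from RefSeq on GRCm38.p6, the assembly also called mm10, where 7 of the 10 genes had an entry. Sftpc, Sftpd and Napsa had none. Each is the 250 bases before the annotated start, 5′ to 3′ in the gene's direction. Capitals mark 4 short motifs searched on both strands: CTCAAG, a core bound by NKX2 factors, TGTTTAC, a core bound by FOXA factors, TTNNGCAA, a core bound by C/EBP factors, and TATAAA, the TATA box. A marked motif on the opposite strand appears as its reverse complement.
Sftpb, chr6:72304360-72304609, + strand: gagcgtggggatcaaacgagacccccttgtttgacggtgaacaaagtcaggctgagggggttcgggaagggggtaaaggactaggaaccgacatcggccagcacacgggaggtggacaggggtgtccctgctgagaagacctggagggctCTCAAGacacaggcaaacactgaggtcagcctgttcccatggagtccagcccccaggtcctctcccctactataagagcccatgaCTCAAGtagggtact
Sftpa1, chr14:41131538-41131787, + strand: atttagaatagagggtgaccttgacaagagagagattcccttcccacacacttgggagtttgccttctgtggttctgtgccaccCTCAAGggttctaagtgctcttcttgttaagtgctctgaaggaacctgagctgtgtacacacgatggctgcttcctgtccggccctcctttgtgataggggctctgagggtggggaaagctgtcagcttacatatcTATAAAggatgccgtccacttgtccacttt
Lamp3, chr16:19706366-19706615, - strand: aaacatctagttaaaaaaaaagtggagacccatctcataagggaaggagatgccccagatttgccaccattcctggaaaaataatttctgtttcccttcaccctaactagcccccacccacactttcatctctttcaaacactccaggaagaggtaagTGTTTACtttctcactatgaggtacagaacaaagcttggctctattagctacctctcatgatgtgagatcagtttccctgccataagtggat
Slc34a2, chr5:53049103-53049352, + strand: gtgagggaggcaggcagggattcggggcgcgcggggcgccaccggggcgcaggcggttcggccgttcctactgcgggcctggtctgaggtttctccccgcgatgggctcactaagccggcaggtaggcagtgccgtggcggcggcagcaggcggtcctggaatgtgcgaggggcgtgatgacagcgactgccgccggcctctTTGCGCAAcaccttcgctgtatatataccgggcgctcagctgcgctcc
Hopx, chr5:77115124-77115373, - strand: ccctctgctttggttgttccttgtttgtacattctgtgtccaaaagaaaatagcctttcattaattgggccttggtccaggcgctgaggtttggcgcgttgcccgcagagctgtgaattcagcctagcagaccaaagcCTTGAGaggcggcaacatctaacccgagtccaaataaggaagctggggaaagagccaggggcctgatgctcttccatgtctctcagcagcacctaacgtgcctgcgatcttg

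Sftpb held 2 matches to CTCAAG, which began 100 and 15 bases before the start. Sftpa1 held 1, which began 166 bases before the start, and a TATA box at 30 bases. Lamp3 held 1 match to TGTTTAC at 92 bases and Slc34a2 1 match to the palindromic TTNNGCAA form at 48 bases, with no CTCAAG in either window. The Slc34a2 window lies inside the span that GENCODE gives the gene, before a start within it. The upstream window of Hopx, taken before its most upstream start, held 1 CTCAAG on the opposite strand. A second Hopx window in the table (chr5:77095268-77095517, not printed) held none. Among 32851 promoter windows of the same length in the table, 13.3% held CTCAAG, 3.17% TGTTTAC, 9.56% TTNNGCAA and 12.4% TATAAA. The matches describe the letters in these windows. Binding was not measured.

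The 4 surfactant protein genes were present in every library, and Sftpc was among the most abundant transcripts of the whole table. Sftpc on chromosome 14 (70520949 to 70524081, minus strand, GRCm38), which encodes the membrane-inserted peptide SP-C, measured 6399, 6185 and 3945 TPM in the first, the second and the third 18-month library. The 8-month libraries, in the same order, held 4879.5, 5652 and 11881 TPM. The third 8-month library stood above the other 5, which spanned 1.62-fold, and the ages overlapped. Ranked by TPM over all genes, Sftpc stood between 3rd and 15th. It made up 0.452% to 0.731% of the summed TPM of the 18-month libraries, and 0.557%, 0.650% and 1.36% of that of the 8-month libraries. Its level was 2.74 to 4.90 times that of Pecam1 at 18 months, and 3.46, 4.39 and 8.77 times at 8 months.

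Sftpb on chromosome 6 (72304610 to 72314371, plus strand) encodes SP-B, which is needed for lamellar bodies and for spreading of the film. It lay at 150.6, 118.0 and 78.1 TPM in the older group against 103.7, 119.2 and 264.7 TPM in the younger. Sftpa1, the SP-A gene (chromosome 14, 41131782 to 41136452, plus strand), lay at 266.2, 191.8 and 139.0 TPM in the older group against 173.5, 223.8 and 461.5 TPM in the younger. In both genes the third 8-month library was the highest and the third 18-month library the lowest, and the ages overlapped. Sftpd, which encodes SP-D (chromosome 14, 41172214 to 41185149, minus strand, 35761 bases from Sftpa1), lay at 73.2, 52.8 and 31.2 TPM at 18 months. At 8 months it lay at 46.6, 61.4 and 131.0 TPM. Its 4.2-fold span from lowest to highest library was the widest of the 10 genes.

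The other 3 type 2 genes encode proteins that process or surround surfactant. Slc34a2, the sodium-phosphate cotransporter of the type 2 cell's apical membrane (chromosome 5, 53038081 to 53071664, plus strand), lay at 93.3, 67.5 and 49.6 TPM in the older group against 51.0, 66.5 and 171.5 TPM in the younger. Napsa, which encodes the aspartic protease napsin A that takes part in cleaving the SP-B precursor (chromosome 7, 44572380 to 44586862, plus strand), lay at 34.7, 27.1 and 18.3 TPM and at 23.5, 30.01 and 63.8 TPM. Lamp3, a lamellar body membrane glycoprotein that mature dendritic cells also carry (chromosome 16, 19653378 to 19706375, minus strand), lay at 28.03, 16.8 and 13.8 TPM and at 13.6, 17.2 and 38.2 TPM. All 3 had their highest value in the third 8-month library. Exons of Napsa share 502 bases with the antisense gene Gm15396, and the library kit does not mark strand, so its reads could include antisense ones.

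**Figure D1:**
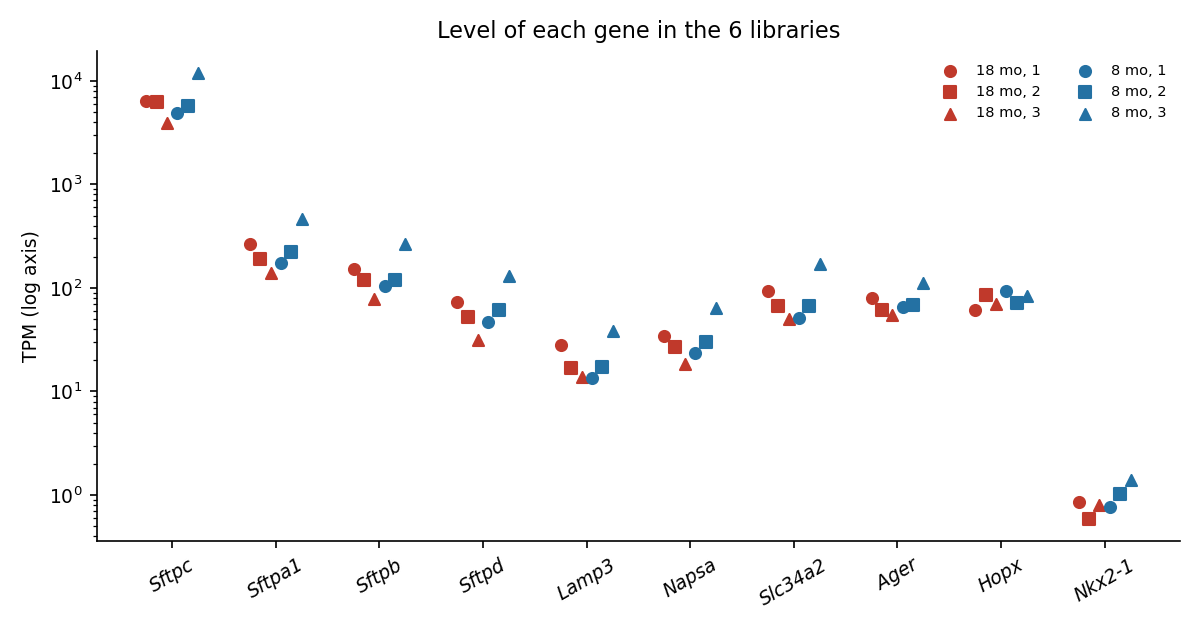
TPM of the 10 genes on a log axis, 1 point per library (red, 18 months; blue, 8 months; the marker shape gives the replicate number). The third 8-month library is the highest in the 7 type 2 genes, with Sftpc at 11881 TPM, while the points of Hopx lie within 1.52-fold of each other.

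The type 1 genes did not vary in the same way as each other. Ager, which encodes the receptor RAGE of the type 1 cell's basolateral membrane (chromosome 17, 34597862 to 34600936, plus strand), lay at 79.4, 61.5 and 54.3 TPM in the older group against 66.1, 67.8 and 111.3 TPM in the younger. It was highest and lowest in the same libraries as Sftpc, over a 2.05-fold span. Hopx, a homeodomain protein without DNA binding of its own that marks type 1 cells (chromosome 5, 77086988 to 77115121, minus strand), lay at 61.0, 84.7 and 69.9 TPM at 18 months. At 8 months it lay at 92.5, 71.6 and 83.4 TPM, over a 1.52-fold span and with its highest value in the first 8-month library. Exons of Hopx share 412 bases with the antisense gene Hopxos, whose reads could not be told from its own. Nkx2-1 (chromosome 12, 56531958 to 56536908, minus strand) lay at 0.864, 0.592 and 0.794 TPM in the older group against 0.759, 1.01 and 1.40 TPM in the younger. Its mean over the 6 libraries, 0.904 TPM, was below the minimum of 1 TPM for the test. The other 9 genes passed that filter.

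Across the libraries the 7 type 2 genes moved together. In the third 8-month library each was 2.26 to 2.92 times its mean in the other 8-month libraries, against 1.66 times for Ager, 1.58 times for Nkx2-1 and 1.02 times for Hopx. The median of this ratio over all 12748 tested genes was 0.971. Pearson correlations with Sftpc, in log2(TPM + 1) over the 6 libraries, were between 0.907 (Lamp3) and 0.987 (Sftpb) for the other 6 type 2 genes. Exact 2-sided permutation p-values, adjusted by Benjamini-Hochberg over the 9 genes compared with Sftpc, were 0.0075 for Sftpa1, Sftpb, Sftpd, Napsa and Slc34a2 and 0.0083 for Lamp3. The libraries were permuted without regard to age, so the permutation p-values do not take the age groups into account. Spearman's rho was 1.0 for Slc34a2 (exact adjusted p = 0.025), 0.943 for Sftpa1, Sftpb, Sftpd and Napsa (0.030 each) and 0.886 for Lamp3 (0.050). The libraries farthest from the median of Sftpc were the third of each age. Without them r was between 0.721 (Sftpa1) and 0.90 (Slc34a2) over the remaining 4 libraries.

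Ager correlated with Sftpc at r = 0.942 (exact permutation adjusted p = 0.014) and rho = 0.829 (adjusted p = 0.075). Without the third library of the younger group alone, Ager had r = 0.758. For the type 2 genes other than Sftpc this value lay between 0.739 (Lamp3) and 0.951 (Sftpb). Without the third library of each age Ager had r = 0.358, so the relation was weaker with those libraries left out. Hopx had r = 0.176 (exact permutation adjusted p = 0.76) and rho = -0.086 (0.92), with r = -0.70 without those libraries. Nkx2-1 had r = 0.728 (exact permutation adjusted p = 0.14) and rho = 0.486 (0.40), with r = -0.094 without them. The values share their libraries and the TPM scale. Each age held too few libraries for a correlation of its own.

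**Figure D2:**
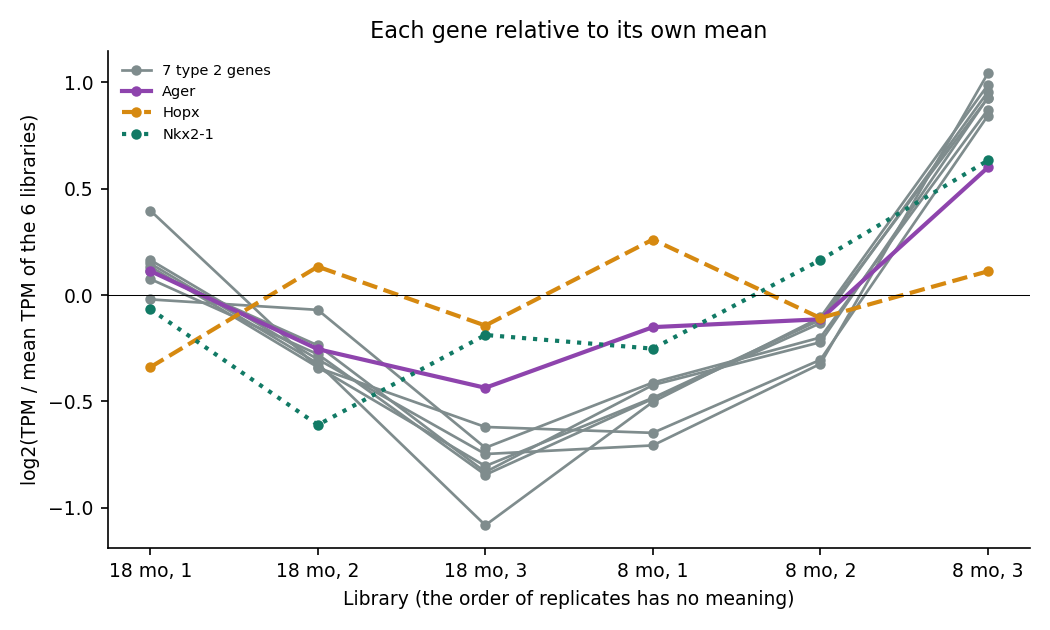
Level of each gene in each library as log2 of its TPM over its mean TPM in the 6 libraries; grey lines are the 7 type 2 genes, and lines join libraries only to show 1 gene. The grey lines keep close to each other and peak in the third 8-month library, Ager follows with a smaller swing, and Hopx (dashed) does not peak there.

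A ratio between genes of 1 library does not depend on how libraries are scaled. For each 100 TPM of Sftpc there were 3.10 to 4.16 TPM of Sftpa1, 1.91 to 2.35 of Sftpb and 0.790 to 1.14 of Sftpd. The same ratio was 1.05 to 1.46 for Slc34a2, 0.438 to 0.542 for Napsa and 0.272 to 0.438 for Lamp3. The coefficient of variation over the 6 libraries was 43.0% to 55.3% for the TPM of the 7 type 2 genes, and 7.64% to 18.8% for the ratios of the other 6 to Sftpc. Sftpc made up 90.8% to 92.9% of the summed TPM of the 7 genes. For Hopx the order was the opposite, with a coefficient of variation of 15.1% for its TPM and 34.7% for its ratio to Sftpc. Ager had 27.7% for its TPM, between Hopx and the type 2 genes, and 15.4% for its ratio, within the type 2 range. The ratios to Sftpc overlapped between the ages in all 9 genes, where 4.52% of the other tested genes had ratios that did not overlap.

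**Figure D3:**
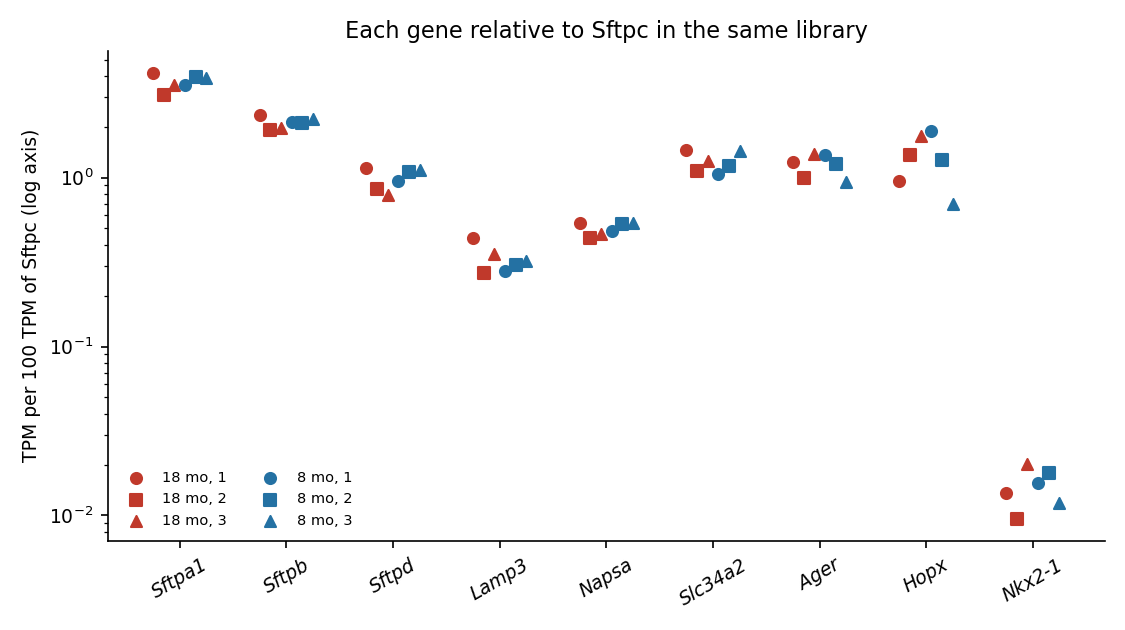
TPM of each gene per 100 TPM of Sftpc in the same library, on a log axis, 1 point per library (red, 18 months; blue, 8 months). The type 2 ratios lie close together, as for Sftpb between 1.91 and 2.35, while Hopx spreads from 0.702 to 1.90.

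Between the ages, 0 of the 9 tested genes passed the test (limma's moderated test on log2(TPM + 1), Benjamini-Hochberg adjusted p under 0.05 over 12748 genes), and 0 had an unadjusted p under 0.05, where 1714 of the 12748 genes did. Over all genes 0.0235% passed, 0.00784% as higher and 0.0157% as lower at 18 months. That split of 1 and 2 genes became 8 and 8 under median-of-ratios scaling, 9 and 7 under quantile normalization, and 1 and 1 once GC content and length were corrected for. Groups that did not overlap were found in 18.7% of tested genes and in 0 of the 10 genes. All 9 had a lower fitted value at 18 months. The median of their log2 differences was -0.36, beside -0.079 over all tested genes. Sftpc lay at 5509.7 ± 1359 TPM at 18 months (SD, n = 3) and at 7471 ± 3839 TPM at 8 months. Its log2 difference was -0.36 (limma adjusted p = 0.72), and the 95% interval ran from -1.16 to 0.44. Sftpd had the most negative value of the 9, -0.54 (interval from -1.49 to 0.42, limma adjusted p = 0.63), where the older group held 52.4 ± 21.0 TPM and the younger 79.7 ± 45.1 TPM (SD, n = 3). Hopx had the narrowest interval, from -0.54 to 0.14 around -0.20 (limma adjusted p = 0.61), with 71.9 ± 11.96 and 82.5 ± 10.5 TPM (SD, n = 3). The limma adjusted p of the other 6 lay between 0.62 (Ager) and 0.92 (Lamp3).

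The size of most of these differences, and the sign of 4 of the 9, turned on the third 8-month library. Without it the log2 difference was 0.036 for Sftpc, 0.0048 for Sftpb, 0.27 for Lamp3 and 0.22 for Slc34a2, so 4 of the 7 type 2 genes lay on the higher side at 18 months. Those of Sftpa1, Napsa and Sftpd were -0.036, -0.037 and -0.11, and those of Ager and Hopx -0.059 and -0.19. The median of the 9 was then -0.036. The summed TPM of the 7 type 2 genes lay at 7045, 6659 and 4275 at 18 months and at 5291, 6169.9 and 13012 at 8 months, a ratio of means of 0.735. In log2 this ratio was -0.44 with all libraries and 0.065 without the third 8-month library. Without the third 18-month library Lamp3 also turned, to 0.058, and the median of the 9 was -0.18. With library weights, which let limma count libraries unequally, the median was -0.67 and 4 of the 9 had an unadjusted p under 0.05 (smallest limma adjusted p = 0.21), as did 2584 of all 12748 genes under that setting.

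**Figure D4:**
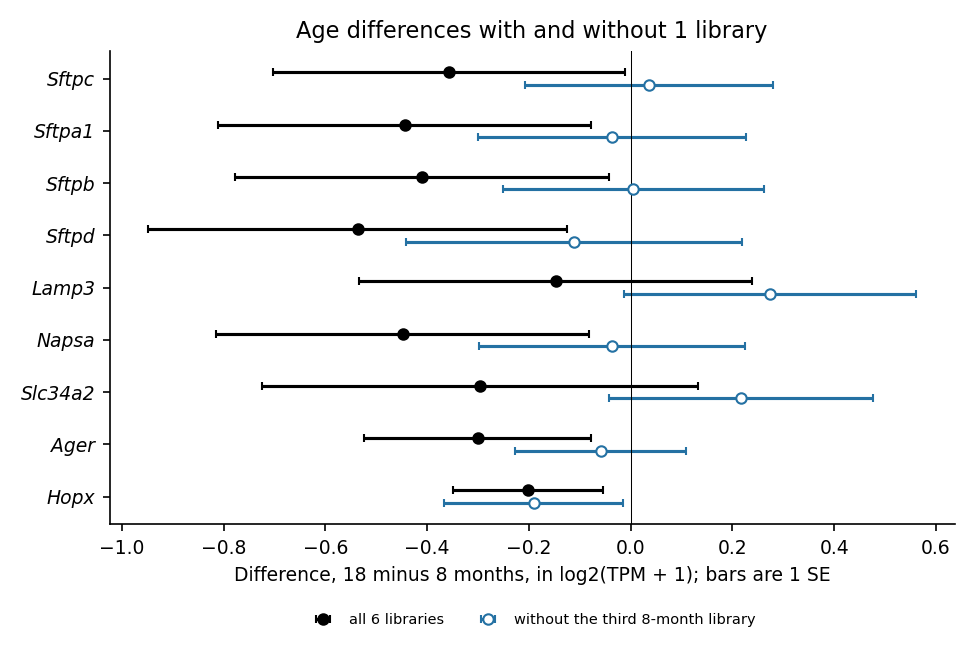
Difference between 18 and 8 months in log2(TPM + 1) for the 9 tested genes, with all 6 libraries (filled) and without the third 8-month library (open); bars are 1 SE from limma. With all libraries every point lies below 0, and without that library 4 lie above it.

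Other genes of type 2 cells were read from a list of 20, of which 19 were tested and 0 passed. Their median log2 difference was -0.25, and 0.029 without the third 8-month library. In 16 of the 19 the third 8-month library was the highest, where it was the highest in 16.6% of all tested genes. Lyz1, a lysozyme of type 2 cells in mice, lay at 131.4, 103.9 and 58.2 TPM in the older group against 89.2, 82.4 and 183.4 TPM in the younger, with r = 0.941 to Sftpc. Chil1, a chitinase-like protein, lay at 120.0, 103.6 and 62.3 TPM and at 62.1, 75.9 and 163.2 TPM, with r = 0.924. In both, the third 8-month library was the highest and the ages overlapped. Abca3, the lipid pump of the lamellar body, was flatter, at 49.3, 42.2 and 48.7 TPM in the older group against 46.1, 56.1 and 63.2 TPM in the younger (r = 0.651). So was Rab27a, a small GTPase of secretory vesicles, with r = 0.174. Fgfr2, a growth factor receptor, is listed at no more than 0.322 TPM in any library and is named after its values were seen.

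Relative to Sftpc, 4 of the 19 other type 2 markers did not overlap between the ages, 3 higher and 1 lower at 18 months. Of all tested genes 4.52% did not overlap, 4.2% higher and 0.322% lower at 18 months. The genes in question were picked out after their values were seen. Chil1 lay at 1.87, 1.68 and 1.58 TPM per 100 TPM of Sftpc at 18 months and at 1.27, 1.34 and 1.37 at 8 months. The mucin gene Muc1 had 0.844, 0.619 and 0.620 against 0.451, 0.520 and 0.575, and Lcn2, which binds bacterial siderophores, 0.550, 0.449 and 0.295 against 0.272, 0.281 and 0.241. Ctsh, a cathepsin that trims surfactant protein precursors, went the other way, at 0.512, 0.444 and 0.493 against 0.591, 0.969 and 0.565. With 3 libraries an age an exact permutation test cannot go below 0.10, so these are given as values.

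As a list, genes for making, packing and recycling surfactant lipid did not follow Sftpc. Of 23 listed, 21 were tested, 0 passed, and the median log2 difference was -0.075. The third 8-month library was the highest in 8 of the 21 (38.1%), beside 16.6% of all tested genes. The list's r to Sftpc ran from -0.73 to 0.836 with a median of 0.142. Some of its genes, such as Abca3 and Ctsh, also stood on the list of other type 2 markers. The most abundant was Adgrf5, an adhesion receptor that restrains surfactant secretion and is also made by endothelium, at 736.3, 598.1 and 781.8 TPM in the older group against 693.6, 784.8 and 718.3 TPM in the younger. Elovl5, a fatty acid elongase, lay between 415.3 and 540.2 TPM, with r = -0.73 to Sftpc. In Adgrf5 and Elovl5 the third 8-month library was not the highest.

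Of 12 other epithelial transcription factors, 6 reached the test and 0 passed. Foxa1, Foxa2 and Cebpa, partners of NKX2-1 at surfactant genes named here after their values were seen, lay at most at 0.304, 0.411 and 0.878 TPM. Etv5, an ETS factor of type 2 cells, was the most abundant of the list, at 10.9, 6.52 and 7.71 TPM in the older group against 7.93, 10.7 and 17.6 TPM in the younger. Elf3, an ETS factor of epithelia, measured 11.5, 8.09 and 6.49 TPM in the older group against 2.77, 2.999 and 5.02 TPM in the younger, without overlap (log2 difference 1.08, limma adjusted p = 0.17). All these lay below Sftpb, Sftpa1 and Sftpd in TPM, as did Nkx2-1 at 1.40 TPM or less in each library.

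Among 15 further type 1 markers, 10 were tested and 0 passed, with a median log2 difference of -0.23. Gprc5a, an orphan receptor, lay at 53.5, 47.5 and 52.7 TPM in the older group against 84.8, 53.2 and 84.9 TPM in the younger. Lmo7, an adherens junction protein, lay at 26.5, 20.9 and 26.1 TPM in the older group against 39.1, 30.3 and 47.2 TPM in the younger, groups that did not overlap (limma adjusted p = 0.196). Cyp2b10, a cytochrome P450 and the 1 marker of the 10 with a higher fitted value at 18 months, measured 12.7, 9.44 and 7.28 TPM in the older group against 4.71, 2.79 and 8.31 TPM in the younger (log2 difference 0.85, limma adjusted p = 0.33). The water channel gene Aqp5, named after its values were seen, lay between 1.01 and 2.89 TPM, with r = 0.973 to Sftpc. It was the only 1 of the 10 tested with r above 0.9. The list's r ran from -0.037 (Spock2) to 0.973, with a median of 0.484. In 6 of the 10 the third 8-month library was the highest, where it was the highest in 16.6% of all tested genes. Without that library the list's median log2 difference was -0.079, over the 8 markers that then reached the test.

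Markers of other cells moved with the type 2 genes in part. Of 7 red cell and platelet genes, 7 were highest in the third 8-month library, where their summed TPM of 1885 was 4.48 times that of the other 8-month libraries. At 18 months this sum was 339.2 to 730.8, and 5 of the 7 had r above 0.9 with Sftpc. Summed macrophage markers (19 listed, 15 tested) lay at 1666, 1862 and 1072 TPM in the older group against 755.7, 809.0 and 1952 TPM in the younger, and 8 of the 15 were highest in the third 8-month library. Lyz2, a lysozyme of macrophages and type 2 cells, made up most of that sum. Csf1r lay at 0.745 TPM or less, with 0 in the third 18-month and the first and second 8-month libraries. It does not stand for the list, of which 15 of 19 markers had a mean of at least 1 TPM. Of 13 tested general epithelial genes, 11 were highest in the third 8-month library. Airway secretory genes were not, with 0 of 10 highest there and 9 highest in the first 18-month library. Their median ratio of the third 8-month library to the mean of the other 8-month libraries was still 1.80. For the 6 tested ciliated cell genes it was 1.78, beside 0.971 over all tested genes. Endothelial genes were highest in the third 8-month library in 3 of 22, with a median ratio of 0.970. Of the 22, 18 had a lower fitted value at 18 months and 4 a higher one. An unadjusted limma p under 0.05 was found for 6 of the 18, beside 1274 of all 12748 genes in that direction, and 0 of the 22 passed. The part of red cell or macrophage RNA in the type 2 differences was not tested.

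**Figure D5:**
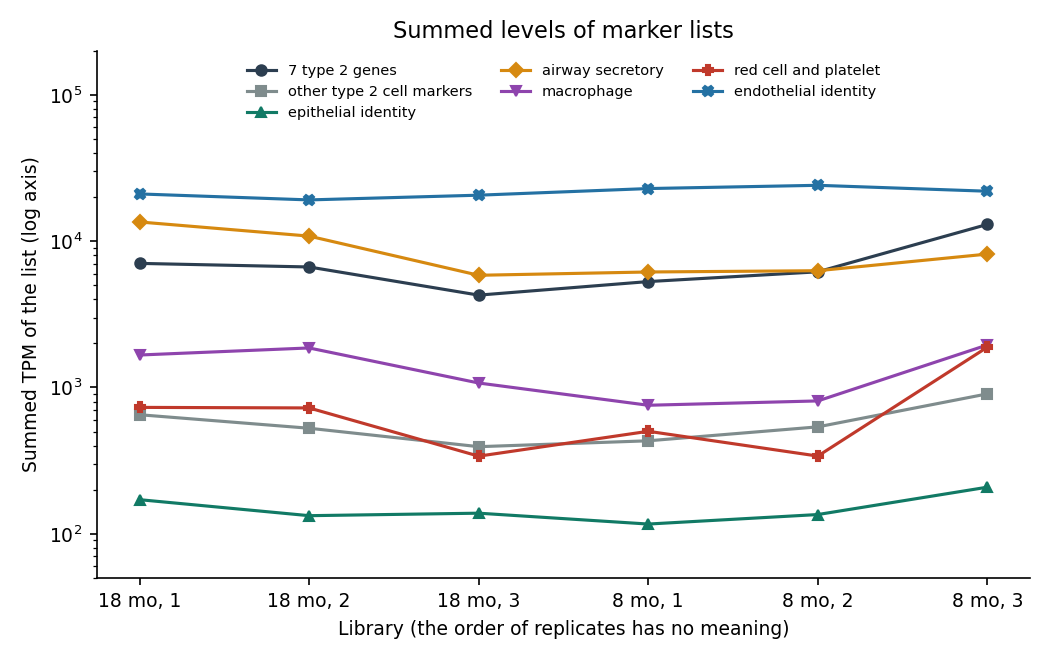
Summed TPM of 7 marker lists in each library on a log axis; lines join the libraries of 1 list. The 7 type 2 genes reach 13012 TPM in the third 8-month library, where the red cell and platelet list also has its highest sum. The endothelial list lies between 19127 and 21013 TPM at 18 months and between 21931 and 24069 TPM at 8 months.

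Among the 9504 genes outside the 10 with a mean of at least 5 TPM, 0.421% had r above 0.9 with the averaged pattern of the 7 type 2 genes over the 6 libraries. The 8 most alike were Mpnd (r = 0.997), Egfl6 (0.991), Cxcl15 (0.986), Dram1 (0.980), S100g (0.971), Aox3 (0.970), Sdc1 (0.969) and Pafah1b3 (0.967). Of these Egfl6, Cxcl15, Dram1 and S100g stood on the list of other type 2 markers. From lowest to highest library Egfl6 spanned 3.21-fold and Cxcl15, a chemokine of lung epithelium, 2.797-fold, beside 2.81-fold to 4.2-fold for the 7 type 2 genes. Sdc1, the syndecan of epithelial surfaces, spanned 3.61-fold, from 2.73 TPM in the third 18-month library to 9.85 TPM in the third 8-month library. Mpnd spanned 1.65-fold and Pafah1b3 1.48-fold, so a like pattern went with a smaller swing. With Sftpc alone the 8 most alike were Mpnd (0.985), S100g (0.982), 4930596I21Rik (0.976), Cep57l1 (0.975), Cmpk2 (0.961), Tgfbi (0.958), Txnrd2 (0.957) and Zmiz2 (0.956).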

How the data were processed

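RNA of 6 libraries, 3 per age, was measured by sequencing. Per the labels' protocols, 10 ng of total RNA entered each SMARTer Ultra Low library. The authors deposited TPM per Ensembl gene and library; the submitters' processing notes name kallisto and mm10. Not given in the sources used here are the kallisto version, transcript set and gene summing. Symbols came from GENCODE M21 (GRCm38), which held 24298 of the 24520 identifiers.

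With R 4.3.3 and limma 3.58.1, log2(TPM + 1) of 12748 genes (mean over all libraries of 1 TPM or more) was fitted with age as the only term and an intensity trend. The test was 2-sided, with Benjamini-Hochberg adjustment over all genes, a threshold of 0.05 and 95% intervals. Because 1 is added, log2 differences understate the changes of low genes. The fit was tested on simulated data. Correlations used exact permutation over 720 pairings without regard to age, whose smallest p is 0.0014. The members, gene lists and tests were chosen with earlier results of these data known. The 10 genes were named whatever their result; of each other list, up to 3 genes by unadjusted p and 3 by mean TPM, and the 8 most alike in pattern. Pecam1, Epcam, Muc1, Lcn2, Fgfr2, Foxa1, Foxa2, Cebpa, Aqp5 and Csf1r are named outside this rule, after their values were seen. Alternatives covered the pseudocount, filter, scaling, GC content and length, trend, library weights, replicate block and each library left out. Protein-coding genes alone was added after the data were seen. All value columns of the table belong to these libraries.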

Additional observations from a re-analysis of the deposited data

How the results depend on the processing

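Of 162 values of the 9 tested genes under 18 alternatives, 157 kept their direction, 5 reversed and 0 passed the threshold. The reversed values were 0.036 for Sftpc, 0.0048 for Sftpb, 0.27 for Lamp3 and 0.22 for Slc34a2 without the third 8-month library, and 0.058 for Lamp3 without the third 18-month library. Leaving out a library moved Sftpc between -0.61 and 0.036, Sftpb between -0.67 and 0.0048, Lamp3 between -0.44 and 0.27 and Slc34a2 between -0.65 and 0.22. The cause was not tested. Over all alternatives the 9 genes' log2 differences lay between -0.99 and 0.27 and their smallest limma adjusted p was 0.21. The number of genes called over the whole table was 3. It was 0 with no filter (2203 at an unadjusted p under 0.05), 16 after median-of-ratios scaling and also 16 after quantile normalization, 28 when only protein-coding genes were fitted, 94 with library weights, and 0 to 2 when a library was left out; the cause was not tested. Of genes on the other lists 0 were called, and 1 with library weights. With the replicate number as a block (replicate block), 0 genes passed and 1445 had an unadjusted p under 0.05. The numbers are not known to pair the libraries: same-numbered libraries' deviations from their age means correlated at -0.012, -0.090 and 0.057, and 1 of 3 18-month libraries correlated best with its own number. The depth is unknown, so low values such as those of Nkx2-1 have no stated counting error.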

Other observations

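Set against Sftpc within each library, 4.2% of all tested genes stood higher at 18 months without overlap, and 0.322% lower. Among the lists a higher ratio without overlap was found for 12 of 15 tested macrophage markers, 6 of 10 airway secretory genes and 5 of 6 ciliated cell genes. It was also so for 3 of 13 general epithelial genes, 2 of 6 genes of other leukocytes, 3 of 19 other type 2 markers, 1 of 10 other type 1 markers, 1 of 6 epithelial transcription factors and 1 of 21 surfactant lipid genes. The secretoglobin gene Scgb1a1, the main product of club cells, lay at 12297, 9993 and 5224 TPM in the older group against 5742, 5810.4 and 7384 TPM in the younger. That is 1.92, 1.62 and 1.32 times Sftpc at 18 months and 1.18, 1.03 and 0.621 times at 8 months. Chil3, a chitinase-like protein of alveolar macrophages, lay at 140.5, 390.6 and 248.7 TPM in the older group against 26.7, 31.4 and 140.1 TPM in the younger (limma adjusted p = 0.195 for its TPM). The genes of a list share their libraries and are not independent, and these ratios were looked at after other results were known. None of the 9 fibroblast, 7 smooth muscle and pericyte, 3 dendritic, 7 red cell and platelet or 22 endothelial genes tested had a higher ratio without overlap. Nor did any of the 9 genes of the report that were set against Sftpc, among which Nkx2-1 was below the filter for the test.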
